A study of Mus musculus with 62 samples.

Results

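The 10 genes described here carry iron into cells, store it, release it or sense it, and were picked by symbol from a table of mouse neocortex RNA. They are Cp, Tfrc, Trf, Fth1, Ftl1, Slc40a1, Slc11a2, Hmox1, Steap3 and Aco1. All 10 symbols were found among the 47643 genes of the table, and all 10 had a mean of at least 1 TPM, so all were among the 14494 genes tested. TPM is the abundance of a transcript per unit of its length, scaled to the same sum in each library. In neocortex of mice with cachexia-causing melanoma, Slc40a1 and Steap3 were lower and Fth1 and Cp higher than in mock-injected mice at 8 weeks. The other 6 genes passed no test against mock-injected mice. Fth1 did not pass at 8 weeks against mice with melanoma that does not cause cachexia. The Steap3 result was lost without 1 of the mock libraries. For Fth1 and Slc40a1 the mock means moved more from 6 to 8 weeks than the means of the cachectic arm.

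The libraries came from neocortex of female mice that were 2 months old when injected. The labels number the libraries of a group as replicates and do not say that each is a separate mouse. The p-values set differences between groups against the spread between libraries. They hold for mice only if each library is a separate mouse. CAC mice received cachectic melanoma cells, NCAC mice received melanoma cells that do not cause cachexia (a wasting of muscle and fat), and Con mice were mock injected. Tissue was collected after 2, 4, 6 and 8 weeks, with 5 libraries in each of 11 groups and 7 in CAC at 8 weeks, 62 in all. The design text names NCI Ath/nude mice, a name that marks an athymic mutant, and the sample labels name C57BL6/J. The strain, and whether the hosts carried the nude mutation, is thus uncertain. No other genetic change of the hosts is given. Depth estimated from the deposited values was 44.9 to 50.7 M reads per library. Over the 62 libraries the 6 neuron markers, such as Slc17a7 and Snap25, summed to 2322 to 3885 TPM, and 0 of them were at 0. Libraries of weeks 6 and 8 were all on lane 4 and those of week 2 on lane 3. At 4 weeks all CAC libraries were on lane 3 and all Con libraries on lane 4, so lane and group cannot be told apart there. Of the libraries, CAC 8 week replicate 3 stood apart with a summed haemoglobin level of 22447 TPM, 15.5 times the median of all libraries. In bulk tissue, fewer cells of a type and less RNA per cell cannot be told apart.

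Iron reaches cells bound to transferrin (the Trf product), which binds the transferrin receptor (Tfrc) and is taken into endosomes. There Steap3 reduces ferric to ferrous iron, and the divalent metal transporter encoded by Slc11a2 moves it into the cytosol. Surplus iron is held in ferritin, a shell of heavy (Fth1) and light (Ftl1) chains. Iron leaves cells through ferroportin, encoded by Slc40a1, the one known cellular iron exporter, together with a ferroxidase such as ceruloplasmin (Cp). The product of Aco1 is an aconitase when it holds an iron-sulfur cluster and an RNA-binding iron regulatory protein when it does not. Haem oxygenase 1 (Hmox1) frees iron from haem. In brain, much of the transferrin mRNA is made by oligodendrocytes and choroid plexus, and ceruloplasmin mRNA by astrocytes.

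Iron regulatory proteins bind a hairpin in some of these mRNAs, the iron responsive element. It blocks translation when it lies in the 5' UTR, as in ferritin mRNAs, and protects the mRNA from decay when it lies in the 3' UTR, as in that of the transferrin receptor. Transcripts of the GENCODE vM21 annotation of GRCm38 were searched for a bulged C, 5 stem bases, the loop CAGTGN with the last base other than G, and 5 bases that pair with the first 5 with G to T pairs allowed. A match was found in 4 of the 10 genes, Fth1, Ftl1, Tfrc and Slc40a1, and in 222 of 21877 genes with a protein-coding transcript (1.01%). The elements of the storage genes and of the receptor are shown because they let a reader set the RNA levels below beside the part of each mRNA that iron acts on. Each is 30 bases, 5' to 3', with the 6 loop bases in capitals.

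Fth1, 5' UTR, chr19:9982732-9982761, plus strand: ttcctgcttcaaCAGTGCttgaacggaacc
Ftl1, 5' UTR, chr7:45459778-45459807, minus strand: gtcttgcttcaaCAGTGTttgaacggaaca
Tfrc element 1, 3' UTR, chr16:32631219-32631248, plus strand: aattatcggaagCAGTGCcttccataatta
Tfrc element 2, 3' UTR, chr16:32631598-32631627, plus strand: cattatcgggagCAGTGTcttccataatgc
Tfrc element 3, 3' UTR, chr16:32631663-32631692, plus strand: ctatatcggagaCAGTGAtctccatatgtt
Tfrc element 4, 3' UTR, chr16:32631710-32631739, plus strand: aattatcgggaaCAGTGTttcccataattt

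The Fth1 and Ftl1 elements have the same base at 26 of 30 positions. The 4 matches in Tfrc share 18 to 25 of 30 bases with each other and 9 to 13 with the ferritin elements. These matches are a description of sequence, and binding of a protein to them was not measured. An element that departs from the pattern would be missed, so a gene may hold more elements than the matches counted here. In RefSeq promoter windows (GRCm38.p6, 250 bases before to 50 after a start, both strands) 6 of the 10 genes had an entry, and Trf, Slc40a1, Slc11a2 and Hmox1 had none. The antioxidant response motif TGACNNNGC was in 0 of their 12 windows and in 12.4% of all 32851 windows, and the STAT motif TTCNNNGAA was in 0 of 12 and in 8.3% of all. The hypoxia response motif ACGTG was in 2 of the 12 windows, both of Tfrc, and in 19.6% of all.

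In GRCm38 with GENCODE vM21, Slc40a1 lies on the minus strand at chr1:45908068-45926523 with 8 merged exons, Steap3 on the same strand at chr1:120190757-120272705 with 9, and Cp on the plus strand at chr3:19957054-20009145 with 22. The ferritin genes are short, Fth1 at chr19:9980598-9985098 (plus) and Ftl1 at chr7:45457944-45459884 (minus). Trf is at chr9:103204001-103230444 (minus), Tfrc at chr16:32608920-32632794 (plus) and Slc11a2 at chr15:100387898-100425072 (minus). Aco1 is at chr4:40143081-40198338 (plus) and Hmox1 at chr8:75093621-75100589 (plus).

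The levels of the 10 genes spanned a wide range, with ferritin RNA far above the rest. Over the 62 libraries Fth1 had a mean of 4517 TPM (SD 496). Ftl1 followed at 853 TPM (SD 65), Trf at 171 TPM (SD 35.2) and Tfrc at 61.9 TPM (SD 11.9). Aco1 at 19.7 TPM (SD 1.08) and Slc11a2 at 18.2 TPM (SD 2.48) were within their spread of each other. So were Cp at 6.14 TPM (SD 1.95), Hmox1 at 5.84 TPM (SD 0.879) and Slc40a1 at 5.42 TPM (SD 1.14). Steap3 was lowest at 3.41 TPM (SD 0.784), an estimated 114 to 396 reads per library. The highest group mean was 2.16 times the lowest for Cp, 1.83 times for Slc40a1 and 1.69 times for Steap3, but only 1.08 times for Aco1. The plot of levels by week shows each library.

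**Figure D1:**
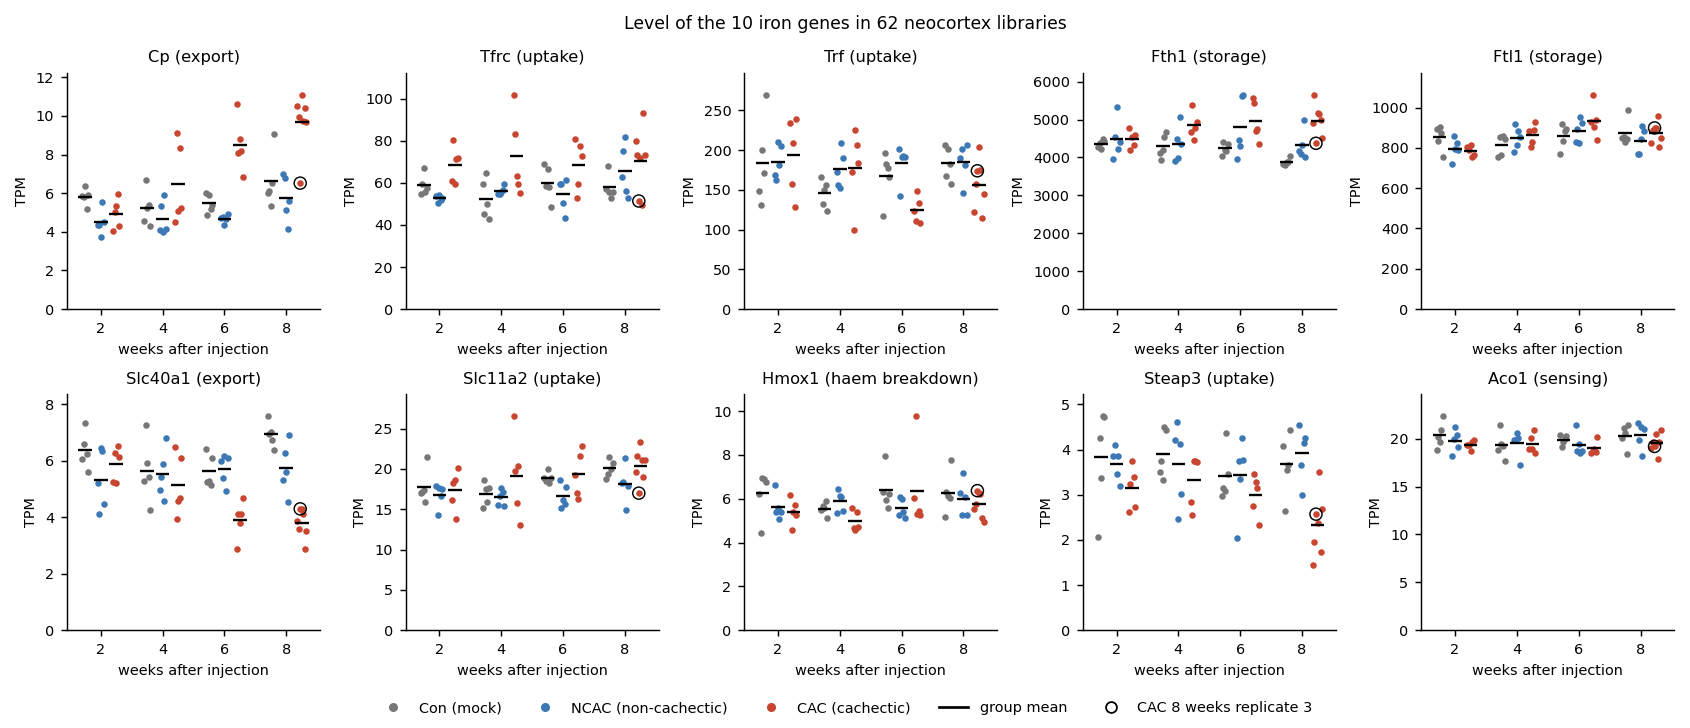
Level of each gene in TPM (y axis, from 0) against weeks after injection (x axis) for Con (grey), NCAC (blue) and CAC (red) libraries. Each point is a library, horizontal bars are group means, and a ring marks CAC 8 week replicate 3. Red points of Slc40a1 lie below all grey points at 6 and 8 weeks, and red points of Fth1 lie above all grey points at 8 weeks.

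The comparison of CAC with Con at 8 weeks asked how iron genes stood late in the disease. Of the 10 genes 2 were higher (Cp and Fth1) and 2 lower (Slc40a1 and Steap3) at an adjusted p under 0.05, where 8.60% of all tested genes passed, 4.91% higher and 3.69% lower. The share of these calls that were higher was 57.1%, and 45.9% with TMM scaling, which changed the call of none of the 10. Groups did not overlap for 2 of the 10, Slc40a1 and Fth1, against 3.23% of all genes. Differences below are in log2(TPM + 1), which understates changes of low genes, and adjusted p-values are from limma with the Benjamini-Hochberg method over all tested genes. The median size of difference without regard to sign was 0.25 for the 10 genes and 0.09 for all genes.

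Among the export genes, Slc40a1 was at 7.60, 6.97, 7.01, 6.73 and 6.37 TPM in Con libraries of week 8. In the 7 CAC libraries it ran from 2.89 to 4.31 TPM with a median of 3.87. Every CAC library lay below every Con library, with a gap of more than 2 TPM between the groups. The mean was 6.94 ± 0.451 TPM (SD, n = 5) in Con and 3.80 ± 0.511 TPM (n = 7) in CAC, a change of -45.2%. The log2 difference was -0.73 (SE 0.10, adjusted p = 4.45e-06), and 10 of the 14494 genes had a lower p. NCAC libraries of week 8 were at 5.33, 6.28, 5.61, 4.55 and 6.92 TPM, above all 7 CAC libraries, and 4 of the 5 were below every Con library. Against NCAC the difference was -0.49 (SE 0.10, adjusted p = 0.00213).

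At 6 weeks Slc40a1 was already lower in CAC. Con libraries were at 6.41, 5.25, 5.28, 5.15 and 6.09 TPM, NCAC libraries at 6.01, 5.38, 6.17, 4.92 and 6.09 TPM and CAC libraries at 2.86, 4.11, 3.79, 4.13 and 4.69 TPM. The CAC values again lay below all values of both other arms. The difference was -0.44 (SE 0.11, adjusted p = 0.0269) against Con and -0.46 (SE 0.11, adjusted p = 0.0101) against NCAC. The call against Con was lost without CAC replicate 1 (-0.36, adjusted p = 0.205), Con replicate 1 (adjusted p = 0.0687) or Con replicate 5 (adjusted p = 0.07), and that against NCAC without CAC replicate 1 (adjusted p = 0.0602). At 6 weeks 2 of the 10 genes passed against Con, Cp higher and Slc40a1 lower, where 1.63% of all genes passed (1.20% higher and 0.428% lower, so 73.7% of calls were higher, and 50.9% with TMM scaling). The same 2 did not overlap between the groups, against 3.69% of all genes. Against NCAC at 6 weeks 1 gene was higher (Cp) and 2 lower (Slc40a1 and Trf), where 9.65% passed (8.05% higher and 1.60% lower, 83.4% of calls higher, and 39.4% with TMM scaling), and Cp and Slc40a1 did not overlap, against 6.74%. Against NCAC at 8 weeks 1 was higher (Cp) and 2 lower (Slc40a1 and Steap3), where 6.02% passed (4.39% higher and 1.64% lower, 72.9% of calls higher, and 47.5% with TMM scaling), and Slc40a1 alone did not overlap, against 1.41%.

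Cp, the ferroxidase that works with ferroportin, moved the other way. At 8 weeks Con libraries were at 6.00, 6.09, 5.35, 6.54 and 9.08 TPM, and CAC libraries ran from 6.52 to 11.1 TPM with a median of 9.95. CAC replicates other than 3 lay above every Con library, and replicate 3 lay inside the Con range. The means were 6.61 ± 1.45 TPM (SD, n = 5) and 9.70 ± 1.49 TPM (n = 7), and the log2 difference was 0.50 (SE 0.12, adjusted p = 0.00716). NCAC libraries had a mean of 5.73 ± 1.19 TPM, and the difference of CAC from NCAC was 0.67 (SE 0.12, adjusted p = 0.000354).

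At 6 weeks Cp was at 10.6, 8.07, 8.80, 8.17 and 6.85 TPM in CAC libraries. Con libraries were at 6.03, 4.88, 5.93, 5.17 and 5.37 TPM and NCAC libraries at 4.69, 4.75, 4.36, 4.67 and 4.92 TPM. CAC libraries lay above all libraries of both other arms. The difference was 0.54 (SE 0.13, adjusted p = 0.0206) against Con and 0.73 (SE 0.13, adjusted p = 0.000686) against NCAC. The call against Con was lost without CAC replicate 1 (0.47, adjusted p = 0.15), Con replicate 2 (adjusted p = 0.0614) or Con replicate 4 (adjusted p = 0.0566). Exons of Cp share 108 bases with Hps3 on the other strand, and whether counting used strand is not given in the sources used here.

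**Figure D2:**
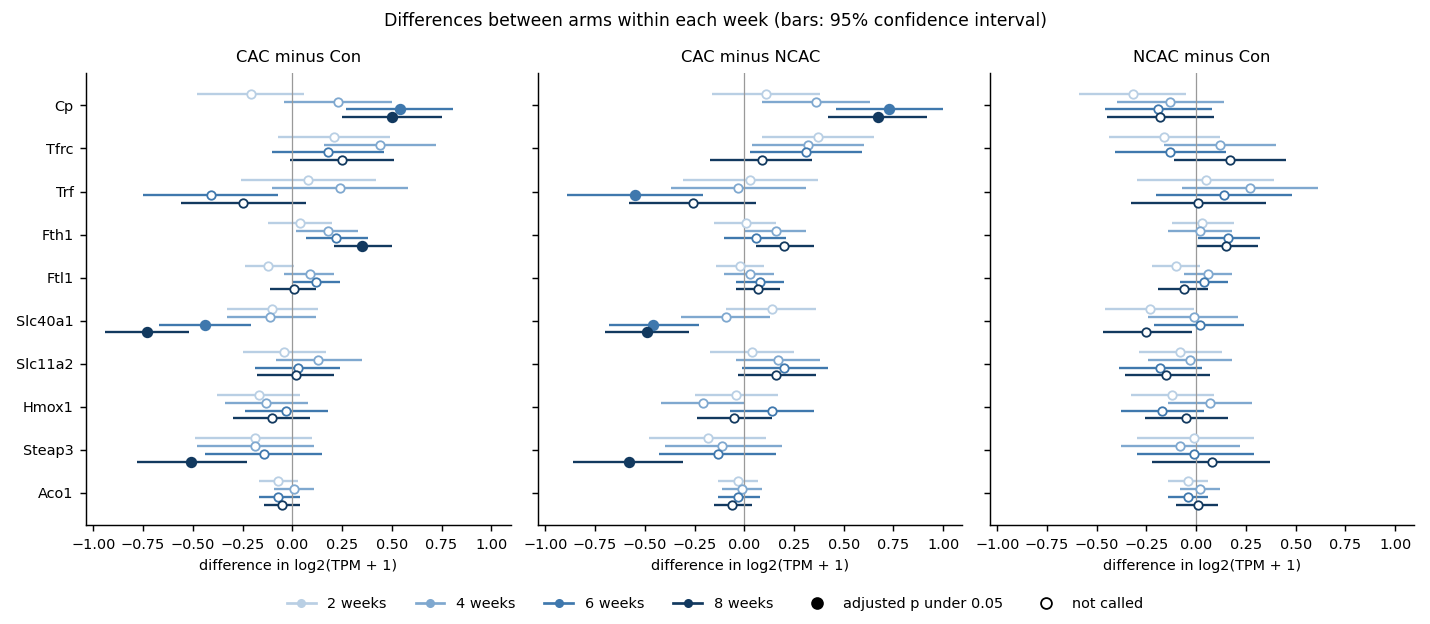
Difference between arms in log2(TPM + 1) for the 10 genes (x axis), with 95% confidence intervals as bars, for CAC minus Con, CAC minus NCAC and NCAC minus Con in weeks 2 to 8 (light to dark blue). Filled points passed an adjusted p under 0.05. Slc40a1 moves left with later weeks in the first panel, to -0.73 at 8 weeks, and the panel of NCAC minus Con has 0 filled points.

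Of the storage genes, the heavy chain rose and the light chain did not pass. Fth1 was at 3816, 3796, 3871, 3871 and 4035 TPM in Con libraries of week 8 and at 4375 to 5658 TPM in CAC libraries, with a median of 4997. The groups did not overlap. The means were 3878 ± 93.7 TPM (SD, n = 5) and 4973 ± 430.0 TPM (n = 7), 28.2% higher in CAC, with a log2 difference of 0.35 (SE 0.07, adjusted p = 0.000904). NCAC libraries were at 4173, 4095, 4334, 4997 and 4015 TPM. Of these 4 lay above every Con library, and the highest lay inside the CAC range. The difference of NCAC from Con was 0.15 (SE 0.08, adjusted p = 0.896), not called. Against NCAC the difference was 0.20 (SE 0.07, adjusted p = 0.0849) and was not called.

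The Con libraries of week 8 were the lowest group for Fth1 and the highest for Slc40a1, so the Con means by week matter for these differences. Con means of Fth1 were 4365, 4294, 4238 and 3878 TPM at 2, 4, 6 and 8 weeks, and CAC means were 4493, 4849.7, 4965 and 4973 TPM. Con libraries of week 8 lay below all Con libraries of week 2 for Fth1, a difference of -0.17 (SE 0.08, adjusted p = 0.134) that was not called. Con means of Slc40a1 were 6.37, 5.63, 5.64 and 6.94 TPM, and CAC means were 5.88, 5.16, 3.92 and 3.80 TPM. From 6 to 8 weeks the CAC means of both genes thus moved by less than the SD of their groups, and the Con means moved by more.

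Ftl1, the light chain, was at 847, 855, 829, 844 and 988 TPM in Con libraries of week 8 and at 805 to 959 TPM in CAC libraries, with a median of 891. The log2 difference was 0.01 (95% interval -0.11 to 0.12, adjusted p = 0.965). The ratio of Fth1 to Ftl1 TPM was 4.08 to 4.67 in Con and 4.87 to 6.35 in CAC libraries of week 8, with means of 4.46 ± 0.227 (SD, n = 5) and 5.69 ± 0.530 (n = 7). In Con libraries the mean ratio was 5.14 at 2 weeks, 5.28 at 4 weeks and 4.94 at 6 weeks. At 6 weeks the differences of CAC from Con were 0.22 for Fth1 (SE 0.08, adjusted p = 0.132) and 0.12 for Ftl1 (SE 0.06, adjusted p = 0.366). Ferritin genes have near-identical pseudogene copies. Fth-ps2 and Ftl2-ps were listed at 0 in every library, so how reads shared with copies were assigned cannot be read from the table. Exons of Ftl1 overlap those of Gm10252 on the other strand.

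Of the uptake genes, only Steap3 passed against Con. Steap3, the endosomal ferrireductase, was at 4.09, 2.64, 3.54, 3.67 and 4.43 TPM in Con libraries of week 8, and at 1.45 to 3.50 TPM in CAC libraries with a median of 2.37. Of the CAC libraries 5 lay below every Con library, and replicates 5 and 7 (3.50 and 2.68 TPM) lay inside the Con range. The means were 3.67 ± 0.674 TPM (SD, n = 5) and 2.32 ± 0.688 TPM (n = 7), a log2 difference of -0.51 (SE 0.14, adjusted p = 0.0127). Against NCAC, at 4.55, 3.67, 3.00, 4.14 and 4.26 TPM, the difference was -0.58 (SE 0.14, adjusted p = 0.00511), a call lost with the oligodendrocyte score (adjusted p = 0.0581) or all 4 marker scores (adjusted p = 0.0784) described below as a term. The call against Con was lost without Con replicate 5 (-0.45, adjusted p = 0.0531) and in a fit of only those groups (adjusted p = 0.0504) or with the oligodendrocyte score (adjusted p = 0.0663). At 6 weeks the difference from Con was -0.14 (SE 0.15, adjusted p = 0.744).

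Trf, which encodes transferrin, was at 123, 111, 149, 133 and 108 TPM in CAC libraries of week 6. NCAC libraries were at 201, 142, 191, 192 and 191 TPM and Con libraries at 117, 196, 183, 177 and 166 TPM. NCAC replicate 2 and Con replicate 1 lay among the CAC values and the other libraries of both arms lay above them. The difference was -0.55 (SE 0.17, adjusted p = 0.0339) against NCAC and -0.41 (SE 0.17, adjusted p = 0.234) against Con. The call against NCAC was lost without any of CAC replicates 1, 4 or 5 or NCAC replicates 3, 4 or 5 (adjusted p = 0.0531 to 0.0873), and with no level filter (adjusted p = 0.0567) or an erythroid score as a term (adjusted p = 0.0787). At 8 weeks CAC libraries ran from 115 to 204 TPM (median 157) and Con libraries from 157 to 207 TPM, a difference of -0.25 (SE 0.16, adjusted p = 0.368). Exons of Trf share 2108 bases with the gene model Gm20425 on the same strand.

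Trf moved with the markers of mature oligodendrocytes. Its r with the score of 12 such markers (the mean of their log2 levels) was 0.70 over the 62 libraries and 0.73 for deviations from group means. The summed TPM of these markers was 2287 to 2568 in CAC, 2526 to 3277 in NCAC and 2351 to 3138 in Con libraries of week 6, with 0 markers at 0. Of the 12 markers 6 fell against NCAC, where 1.60% of all genes were lower, and 2 against Con, where 0.428% were. Opalin and Ugt8a were in both counts. With that score as a term, a fit chosen after seeing the data, the 6 week difference of Trf was -0.13 against NCAC (adjusted p = 0.544). Against Con it was -0.06 (adjusted p = 0.927). Over all genes that term took the calls against NCAC at 6 weeks from 1399 to 457. The score holds markers that fell in CAC, so this fit cannot tell a cause. The part of oligodendrocytes in the Trf difference was not tested. Choroid plexus, the other named source, varied between libraries of each group, with summed markers of 20.1 to 2626 TPM in CAC and 62.4 to 2848 TPM in Con libraries of week 6. Trf had an r of 0.16 with that score. With a score of 5 thalamus markers its r was 0.38, and 0.41 for deviations from group means.

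Tfrc, the receptor, was not called in any comparison. At 8 weeks it was at 57.1, 68, 55.9, 52.9 and 55.5 TPM in Con libraries and at 49.7 to 93.5 TPM (median 73.2) in CAC libraries. Of the CAC libraries 5 lay above every Con library, and replicates 3 and 5 (51.4 and 49.7 TPM) lay below every one. The difference was 0.25 (SE 0.13, 95% interval -0.01 to 0.51, adjusted p = 0.234). At 4 weeks CAC libraries were at 102, 83.4, 63.2, 59.4 and 55.2 TPM and Con libraries at 59.4, 45.3, 64.5, 50.1 and 43 TPM, a difference of 0.44 (SE 0.14, adjusted p = 0.202). Without CAC replicate 5 that comparison reached 0.53 (adjusted p = 0.0291). At 2 weeks CAC libraries lay above all NCAC libraries for Tfrc alone of the 10, against 0.676% of genes without overlap, with 59.5 to 80.2 TPM in CAC and 50.6 to 54.1 TPM in NCAC (difference 0.37, adjusted p = 0.998).

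Slc11a2, the endosomal metal transporter, was at 18.8 to 21.5 TPM in Con and 17 to 23.4 TPM in CAC libraries of week 8, a difference of 0.02 (95% interval -0.18 to 0.21, adjusted p = 0.943). CAC 4 week replicate 1 had its highest value, 26.6 TPM, and replicate 5 of the same group its lowest, 13.1 TPM. Replicate 1 of that group also had the highest Tfrc of all libraries, 102 TPM. Its summed striatum markers were the lowest of all, 158 TPM against a median of 1007 TPM, and its haemoglobin was 2.98 times the median. For deviations from group means r with the score of 7 striatum markers was -0.48 for Slc11a2 and -0.31 for Tfrc. For Tfrc it was larger in size with the microglia (-0.45), astrocyte (-0.42) and neuron (0.42) scores. The part of the tissue taken, or of these cell types, in these values was not tested. Exons of Slc11a2 overlap those of Gm5475 on the other strand.

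Aco1, the sensor, was the steadiest of the 10 in relative spread, from 17.3 to 22.4 TPM over all libraries. At 8 weeks the difference of CAC from Con was -0.05 (95% interval -0.14 to 0.04, adjusted p = 0.571). Hmox1 was at 5.15 to 7.79 TPM in Con and 4.95 to 6.37 TPM in CAC libraries of week 8, a difference of -0.10 (95% interval -0.30 to 0.09, adjusted p = 0.566). These intervals bound the change at this depth and do not show that the levels were equal.

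The early weeks asked when the differences began. At 2 weeks 0 of the 10 genes were called by limma in CAC against Con, where 4.28% of all genes passed. Before adjustment 0 had a p under 0.05, and voom on estimated reads called 0. In CAC against NCAC limma called 0 (0% of all genes), 1 had a p under 0.05 before adjustment, and voom called 0. At 4 weeks limma called 0 against Con (0.0414% of all genes) and 0 against NCAC (0.00690%). In each, 2 had a p under 0.05 before adjustment, voom called 0, and a fit with lane as a term, which rests on 1 NCAC library, called 0. At 2 weeks Cp was at 4.05 to 5.95 TPM in CAC and 5.19 to 6.37 TPM in Con libraries, a difference of -0.21 (SE 0.13, adjusted p = 0.364). Slc40a1 was at 5.21 to 6.52 TPM and 5.61 to 7.34 TPM, a difference of -0.10 (SE 0.11, adjusted p = 0.635). In CAC against Con at 2 weeks 4 of 6 neuron markers were called higher, where 3.68% of all genes were. Of 8 endothelial markers 2 were called lower (Pecam1 and Cdh5), where 0.600% of all genes were. The part of these markers in the 2 week values, and in changes measured from 2 weeks, was not tested.

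The 4 week CAC libraries varied among themselves. Cp was at 4.53, 9.11, 5.06, 8.36 and 5.25 TPM in replicates 1 to 5, so replicates 2 and 4 were in the range of CAC at 6 and 8 weeks and the other 3 in the range of Con. Slc40a1 was at 6.49, 3.95, 4.57, 4.69 and 6.11 TPM in the same order, and replicate 2, highest in Cp, was lowest in Slc40a1. That replicate was also highest of its group in Fth1, at 5390.3 TPM, and lowest in Steap3, at 2.56 TPM, and Trf, at 99.6 TPM. Its haemoglobin was 2.90 times the median of all libraries. Its score of 5 neutrophil markers was the highest of all libraries, 2.53. The part of these in its values was not tested. This description was made after the values were seen and carries no test.

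The difference between CAC and Con was itself compared between weeks. From 2 to 8 weeks it changed by 0.70 for Cp (SE 0.18, adjusted p = 0.0362) and by -0.63 for Slc40a1 (SE 0.15, adjusted p = 0.0258), 2 of the 10 genes, where 1.32% of all genes passed (0.607% higher and 0.711% lower). The call of Cp was lost without any of 13 of the 22 libraries (adjusted p up to 0.103) and that of Slc40a1 without any of 5. With the replicate number as a block both were lost (0.68, adjusted p = 0.0683, and -0.56, adjusted p = 0.0808). For Fth1 the change was 0.31 (SE 0.11, adjusted p = 0.133) and for Steap3 -0.31 (SE 0.20, adjusted p = 0.543). From 4 to 8 weeks 0 of the 10 were called by limma (0% of all genes), 2 had a p under 0.05 before adjustment, and voom called 0. Slc40a1 changed by -0.62 there (SE 0.15, adjusted p = 0.205), and by -0.70 (adjusted p = 0.0399) without CAC 4 week replicate 2. From 6 to 8 weeks 0 were called by limma (0% of all genes), 0 had a p under 0.05 before adjustment, and voom called 0, so a further change between those weeks was not detectable.

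The comparison of NCAC with Con asked what a melanoma without cachexia does. By limma 0 of the 10 genes were called in each of the 4 weeks, where 8.71%, 0%, 0% and 0% of all genes passed at 2, 4, 6 and 8 weeks, and voom called 0 in each. The counts with a p under 0.05 before adjustment were 2, 0, 1 and 1. At 2 weeks these were Cp at -0.32 (adjusted p = 0.115) and Slc40a1 at -0.23 (adjusted p = 0.167), at 6 weeks Fth1 at 0.16 (adjusted p = 0.662) and at 8 weeks Slc40a1 at -0.25 (adjusted p = 0.896). NCAC libraries of week 2 lay below all Con libraries of that week for Tfrc, 1 of the 10 genes against 4.07% of all, with a difference of -0.16 (adjusted p = 0.48). These comparisons share Con libraries with those of CAC.

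Con mice alone were compared between weeks for age. By limma 0 of the 10 genes were called at 8 against 2 weeks, where 11.8% of all genes passed, and 0 at 8 against 4 weeks (0%), with 1 and 3 genes under 0.05 before adjustment, and voom called 0 in each. Fth1 was 1 of the 10 without overlap at 8 against 2 weeks (8.06% of all genes), and Slc11a2 was 1 at 8 against 4 weeks (7.55%), with 18.8 to 21.5 TPM at 8 weeks and 15.1 to 18.6 TPM at 4 weeks (difference 0.24, adjusted p = 0.306). Weeks 2 and 8 were on different lanes, so age and lane cannot be told apart there.

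CAC 8 week replicate 3, the library high in haemoglobin, was at 6.52 TPM of Cp, 4375 TPM of Fth1, 4.30 TPM of Slc40a1, 2.57 TPM of Steap3 and 51.4 TPM of Tfrc. It was the lowest of the 7 CAC libraries in Cp, Fth1 and Slc11a2 (17 TPM), the second lowest in Tfrc and highest in Hmox1 (6.37 TPM). Without it the differences from Con at 8 weeks were 0.58 for Cp (adjusted p = 0.00078), 0.38 for Fth1 (adjusted p = 0.000243), -0.76 for Slc40a1 (adjusted p = 1.51e-06) and -0.53 for Steap3 (adjusted p = 0.00866). The same 4 of 10 genes were called, where 12.2% of all genes passed. Without it Fth1 was also called against NCAC (0.23, adjusted p = 0.032), where 11.3% passed. The other 16 libraries of week 8 had summed haemoglobin of 156 to 2417 TPM, lowest in CAC replicate 4, which had the highest Cp at 11.1 TPM. With an erythroid score as a term the 4 genes kept their calls at 8 weeks (adjusted p = 4.18e-06 to 0.0152), and at 6 weeks Cp (0.49) and Slc40a1 (-0.43) lost theirs against Con, each with an adjusted p of 0.0534.

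**Figure D3:**
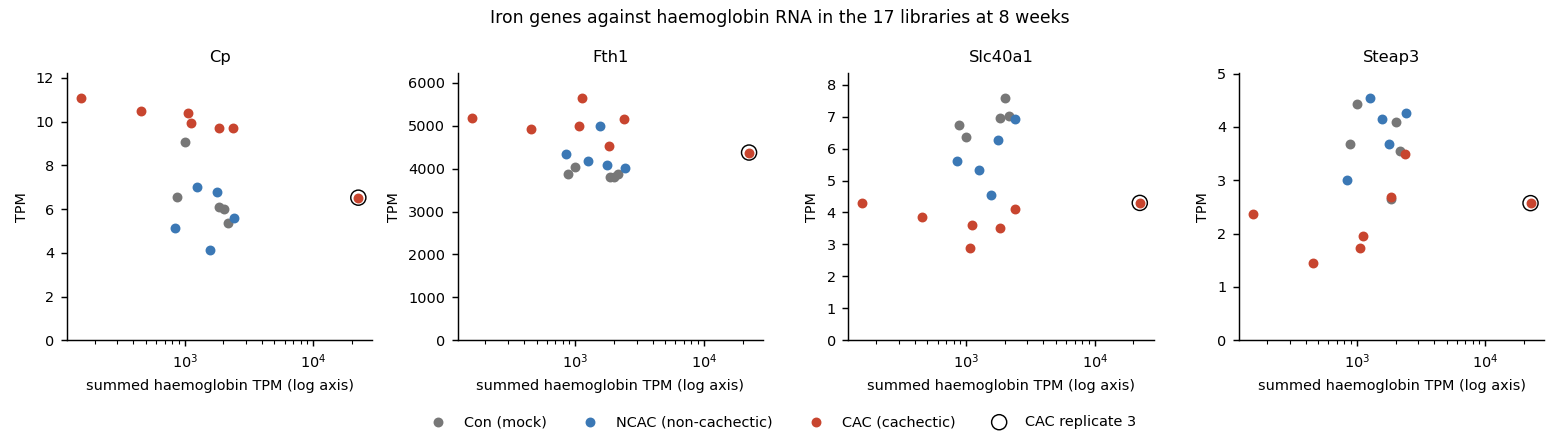
TPM of Cp, Fth1, Slc40a1 and Steap3 (y axis, from 0) against summed haemoglobin TPM (x axis, log scale) in the 17 libraries of week 8, for Con (grey), NCAC (blue) and CAC (red). The ring marks CAC replicate 3, at 22447 TPM of haemoglobin, which has the lowest Cp of the 7 CAC libraries (6.52 TPM) and a Slc40a1 level (4.30 TPM) inside the range of the other CAC libraries.

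Some markers of other cell types also differed between the arms at 8 weeks. For deviations from group means over the 62 libraries, r of Cp, Fth1, Slc40a1 and Steap3 with the microglia and oligodendrocyte scores was -0.21 to 0.33. With the endothelial score it was 0.57 for Slc40a1, 0.28 for Cp, 0.25 for Steap3 and 0.10 for Fth1. With the choroid plexus score it was -0.45 for Slc40a1 and -0.14 to 0.14 for the other genes named. With the neuron score it was -0.44 for Steap3, -0.40 for Fth1, -0.10 for Slc40a1 and -0.05 for Cp. For Cp it was 0.41 with the meningeal fibroblast score and 0.35 with the astrocyte score. Of 8 microglia markers 4 fell in CAC against Con (P2ry12, Cx3cr1, Csf1r and Aif1), where 3.69% of all genes were lower, and 2 fell against NCAC, where 1.64% were. Their summed levels were 373 to 519.7 TPM in CAC (median 477) and 499 to 884 TPM in Con (median 523). Con replicate 5 stood apart, with a microglia score of 6.25 against 5.57 to 5.63 in the other 4. Of 12 oligodendrocyte markers 4 fell against Con, with 1902 to 2756 TPM and 2275 to 2756 TPM. Of 8 endothelial markers Ly6c1 rose and Kdr fell, with summed levels of 229 to 353 TPM in CAC and 224 to 244 TPM in Con. Of 8 choroid plexus markers 0 were called, with 66.8 to 2497 TPM and 574 to 2390.2 TPM. No marker of these 4 lists was at 0 in every library. With all 4 scores as terms, also chosen after seeing the data, Slc40a1 was at -0.75 (adjusted p = 6.78e-06) and Fth1 at 0.42 (adjusted p = 0.00389) against Con at 8 weeks. Cp was at 0.49 (adjusted p = 0.0576) and Steap3 at -0.30 (adjusted p = 0.443), and neither was called. Of 8 astrocyte markers 1 rose and 3 fell, with 2372 to 2728 TPM in CAC and 2473 to 3120.4 TPM in Con, and of 3 tested perivascular macrophage markers 1 rose (Lyve1), with 7.00 to 12.7 TPM and 6.09 to 8.41 TPM. The part of these 2 cell types, and of neurons and meningeal fibroblasts, in the result was not tested. Some scores used as terms hold markers that differed between the arms, so that fit cannot tell a cause.

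The genes most like each of the 10 over the 62 libraries were found by Pearson's r of log2(TPM + 1), a description in which libraries share groups. The genes nearest to Cp included Vwf (r = 0.92), an endothelial gene, and Tgm2 (0.90), a transglutaminase. Slc40a1 was nearest to Slc38a3 (0.85), a glutamine transporter, Kdr (0.83), a VEGF receptor of endothelium, and Aif1l (0.81). Trf was nearest to Myo1d (0.81), Mag (0.81), a myelin protein, and Itgb4 (0.78), and Hmox1 to the complement genes C1qa (0.72), C1qc (0.70) and C1qb (0.69). Fth1 was nearest to Eif3f (0.84), Drap1 (0.80) and the metallothionein gene Mt1 (0.75), and Ftl1 to the ribosomal protein genes Rpl12 (0.74), Rps9 (0.71) and Rps23 (0.71). Tfrc was nearest to Scyl3 (0.85), Arfgap1 (0.83) and Map3k7 (0.82). For Slc11a2 they were Plekha6 (0.80), Rnf31 (0.78) and Unc45a (0.78). For Steap3 they were Cml3 (0.68), Serpinh1 (0.66) and Gkn3 (0.65), and for Aco1 they included Nln (0.62) and Erap1 (0.61).

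Between the 10 genes themselves, r over the 62 libraries was -0.61 for Fth1 with Slc40a1 and -0.52 for Cp with Slc40a1. For deviations from group means these were -0.37 and -0.16. Tfrc and Steap3 had an r of -0.57, and -0.52 for deviations from group means. Fth1 and Ftl1 had 0.43 and 0.47.

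Other genes of iron and haem handling were taken from 6 lists with 74 genes in all. Of these, 62 passed the level filter, and 61 passed it also without the CAC libraries, the exception being Lcn2, which is given by its values with no test. Against Con at 8 weeks 4 of the 61 rose and 2 fell, where 4.91% of all genes were higher and 3.69% lower, and at 6 weeks 1 rose and 0 fell, where 1.20% and 0.428% were. The median difference of the 61 at 8 weeks was 0.02, and 0.02 for all genes. Against NCAC 8 rose and 0 fell at 6 weeks, where 8.05% of all genes were higher and the balance of all calls turned with TMM scaling, and 3 rose and 0 fell at 8 weeks, where 4.39% were higher. At 2 weeks 2 rose and 0 fell against Con, where 3.68% were higher.

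In the list of uptake, reduction and export, 2 of 9 genes rose at 8 weeks and 0 fell, beside the same 4.91% and 3.69%. Lcn2, whose product lipocalin 2 binds iron carried by siderophores, had 5.24 ± 3.62 TPM in CAC (SD, n = 7) and 0.501 ± 0.249 TPM in Con (n = 5) at 8 weeks, and 2.27 ± 1.12 and 0.341 ± 0.121 TPM at 6 weeks (n = 5 each). Cybrd1, a plasma membrane ferrireductase, rose from 2.45 ± 0.534 to 4.38 ± 1.04 TPM (difference 0.63, SE 0.16, adjusted p = 0.00655). Heph, which encodes hephaestin, a ferroxidase like ceruloplasmin, rose from 2.85 ± 0.357 to 4.59 ± 1.29 TPM (difference 0.50, SE 0.13, adjusted p = 0.0122). All 7 CAC libraries were above all Con libraries for Cybrd1, while those of Heph overlapped. At 6 weeks Cybrd1 was at 0.52 (adjusted p = 0.101) and Heph at 0.44 (adjusted p = 0.108), not called. Against NCAC Heph rose at 6 weeks (0.48, adjusted p = 0.0317) and at 8 weeks (0.46, adjusted p = 0.0272), and Cybrd1 rose at 8 weeks (0.76, adjusted p = 0.00145).

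Of 9 tested regulation genes 1 fell at 8 weeks (3.69% of all genes were lower), Hfe2, which encodes hemojuvelin, a BMP co-receptor that controls hepcidin in liver. It went from 1.56 ± 0.256 to 0.734 ± 0.250 TPM (difference -0.57, SE 0.18, adjusted p = 0.0351), and the groups did not overlap. Against NCAC at 8 weeks Hfe2 was at -0.49 (adjusted p = 0.096), not called. Of 18 mitochondrial iron and iron-sulfur cluster genes 1 rose at 8 weeks (4.91% of all genes were higher), Isca1, a cluster assembly gene (0.14, SE 0.04, adjusted p = 0.0209). Against NCAC Isca1 was called at 6 weeks (0.13, adjusted p = 0.0478) but not at 8 weeks (0.12, adjusted p = 0.0764). Isca1 was also higher at 2 weeks, with 112 ± 5.09 TPM in CAC and 96.7 ± 3.98 TPM in Con, no overlap and a difference of 0.21 (SE 0.04, adjusted p = 0.00718). At that week neuron markers were higher too, as given above, and their part in this call was not tested. Slc25a28, which encodes the iron importer mitoferrin 2, rose at 6 weeks from 43.4 ± 3.69 to 53.2 ± 6.05 TPM (n = 5 each, difference 0.28, SE 0.08, adjusted p = 0.037), and at 8 weeks it was at 0.19 (adjusted p = 0.0872). Against NCAC it rose at 6 weeks (0.32, adjusted p = 0.00791) and at 8 weeks (0.26, adjusted p = 0.0182).

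Of 16 tested haem genes 1 rose and 1 fell at 8 weeks, a share near those of all genes. Hmox2, the constitutive haem oxygenase, rose from 84.3 ± 6.15 to 95.5 ± 5.00 TPM (difference 0.18, SE 0.05, adjusted p = 0.0125). Slc46a1, which encodes a folate and haem carrier, fell from 12.7 ± 1.36 to 10.8 ± 1.20 TPM (difference -0.22, SE 0.07, adjusted p = 0.0466). Against NCAC at 8 weeks Hmox2 was at 0.10 (adjusted p = 0.226) and Slc46a1 at -0.16 (adjusted p = 0.199), and neither was called. Of 3 tested storage and chaperone genes 0 were called by limma at 6 or 8 weeks against Con, and of 6 tested NRF2 target genes 0 were called. Against NCAC at 6 weeks 2 of those 6 rose, Gclc (0.27, adjusted p = 0.0227) and Gclm (0.18, adjusted p = 0.0415), where 8.05% of all genes were higher. Both act in glutathione synthesis and were named after their values were seen.

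**Figure D4:**
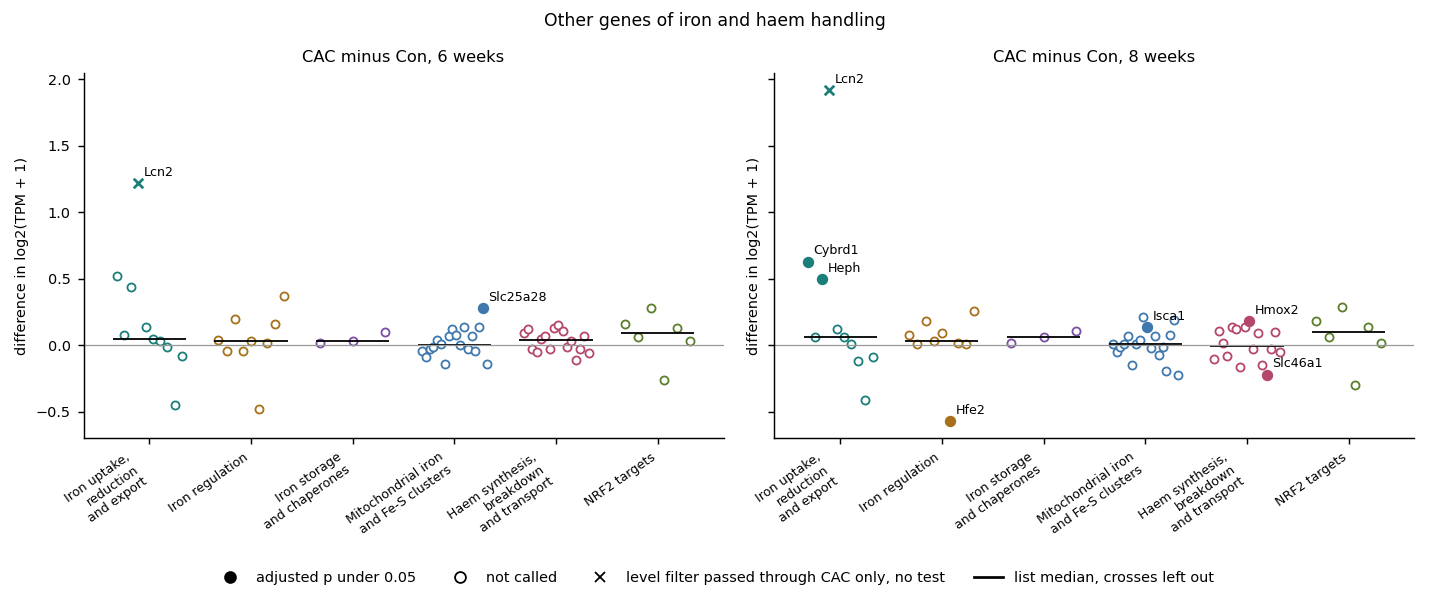
Difference of CAC minus Con in log2(TPM + 1) (y axis) for the 62 tested genes of 6 iron and haem lists (x axis), at 6 weeks (left) and 8 weeks (right). Filled, named points passed an adjusted p under 0.05, the cross is Lcn2, which passed the level filter through CAC libraries only and has no test, and black lines are list medians without it. At 8 weeks Cybrd1, Heph, Isca1 and Hmox2 are filled above 0 and Hfe2 and Slc46a1 below it.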

How the data were processed

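RNA extraction used Trizol and library preparation the TruSeq stranded mRNA kit, per the labels' protocols. Those protocols also name LLC cells and a time of 3 weeks, which match no group. The authors deposited a table of TPM values for 62 libraries. Their genome build, per the submitters' processing notes, is mm10, while aligner, annotation and strand setting were not given in the sources used here. From these values, log2(TPM + 1) of the 14494 genes whose mean reached 1 TPM was fitted with limma 3.58.1 in R 4.3.3 as 12 group means (50 residual degrees of freedom), with trend, for 17 comparisons. P-values were adjusted by Benjamini-Hochberg within each. The fit was tested on simulated data. Depth came from the steps of low values, where 86.4% of 207447 values were whole reads within 0.05. The highest correlation between libraries was 0.9943 and 0 pairs were identical. Exon lengths, transcripts and coordinates are from GENCODE vM21 (GRCm38), which matched 45065 symbols. Lists used 4 older symbols of the table (Mfsd7b, Mfsd7c, Hfe2 and Mfi2). The 12 cell type lists and 6 iron lists, the 10 genes and the tests were chosen with earlier results of these data known. All 10 genes are named, and of the iron lists those called against Con at 6 or 8 weeks (Lcn2 with no test). For likeness the 3 genes with the highest r were taken, leaving out clones, gene models and pseudogenes, and some of them are not reported here. Markers not given in the report were called in CAC against Con at 8 weeks as follows: 0 of 5 tested erythroid, 1 of 6 neuron (higher), 2 of 7 meningeal fibroblast (lower), 0 of 2 neutrophil, 0 of 7 striatum and 0 of 5 thalamus markers. Alternatives were a pseudocount of 0.1, no level filter, TMM scaling, robust moderation, a replicate block, only the groups compared, an erythroid score, lane, and leaving out each library. Voom on estimated reads, 4 marker scores and an oligodendrocyte score were added after seeing the data.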

Additional observations from a re-analysis of the deposited data

Results flagged for a closer look

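In 9 of 120 sets of a gene and a group, 1 library lay farther from the rest than Dixon's 95% limit, and chance alone flags about 1 in 20. Cp in CAC 8 week replicate 3 was 6.52 TPM, against 9.70 to 11.1 TPM in the other 6 libraries. Tfrc in Con 8 week replicate 2 was 68 TPM, against 52.9 to 57.1 TPM. Trf in NCAC 6 week replicate 2 was 142 TPM, against 191 to 201 TPM. Ftl1 in Con 8 week replicate 5 was 988 TPM, against 829 to 855 TPM. Slc11a2 in Con 2 week replicate 5 was 21.5 TPM, against 15.9 to 17.4 TPM. That library also had the highest Trf of all libraries, 269.8 TPM. Its score of 5 thalamus markers was 5.7, against 3.33 to 3.62 in the other Con libraries of week 2. The part of this in its values was not tested. Hmox1 was 4.44 TPM in Con 2 week replicate 2, against 6.23 to 6.94 TPM, and 9.79 TPM in CAC 6 week replicate 2, against 5.26 to 6.04 TPM. Aco1 was 17.3 TPM in NCAC 4 week replicate 5, against 19.9 to 20.6 TPM, and 20.2 TPM in CAC 6 week replicate 5, against 18.5 to 18.9 TPM. CAC 6 week replicate 2 also had the highest summed microglia markers of all libraries, 909 TPM, and Con 8 week replicate 5 had 884 TPM. Over the 62 libraries, deviations from group means of Hmox1 and Ftl1 had an r of 0.56 and 0.60 with the microglia score, a description whose part in these values was not tested.

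The difference between CAC and Con changed from 2 to 8 weeks for Cp, by 0.70, and for Slc40a1, by -0.63, by a test of the change itself with limma (adjusted p = 0.0362 and 0.0258).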

How the results depend on the processing

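Of 28 member differences (all 10 genes against Con at 6 and 8 weeks and each other called one), none changed sign past the threshold under any alternative. Pseudocount, TMM scaling, robust moderation and voom kept all 28 on their side of it. Slc40a1 and Fth1 kept their 8 week calls against Con under all 10 alternatives and each omission of a library. Against Con at 6 weeks the count of 2 called genes was 1 with only the groups compared, 0 with the erythroid score, 1 with the 4 marker scores, 0 with the oligodendrocyte score and 0 to 2 when leaving out a library. Against Con at 8 weeks the count of 4 was 2 with the 4 marker scores (without Cp and Steap3), 3 with only the groups compared and 3 with the oligodendrocyte score (each without Steap3), and 3 to 4 when leaving out a library. Against NCAC the count of 3 at 6 weeks was 2 (without Trf) with no level filter, the erythroid score, the 4 marker scores or the oligodendrocyte score, and at 8 weeks it was 2 (without Steap3) with the 4 marker scores or the oligodendrocyte score. For the change from 2 to 8 weeks the count of 2 was 0 with no level filter, 1 with only the groups compared, 1 with the 4 marker scores, 1 with the oligodendrocyte score and 0 to 2 when leaving out a library. Leaving out a library gave 1 to 4 against NCAC at 6 weeks (Tfrc gained without CAC replicate 2), 3 to 4 against NCAC at 8 weeks (Fth1 gained without NCAC replicate 4 or CAC replicate 3), 0 to 1 against Con or NCAC at 4 weeks (1 without CAC 4 week replicate 5, Tfrc and Cp respectively) and 0 to 1 for the change from 4 to 8 weeks. The cause of these shifts was not tested.

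With the replicate number as a block, the count for the change from 2 to 8 weeks was 0 and no other member call changed. Whether the numbers pair libraries is not given by the labels and was not settled. In deviations from group means same-numbered libraries correlated at -0.25 to 0.28, and in no comparison was every pair above 0.1. At 4 weeks 4 of 5 pairs of CAC with NCAC were above 0.1 (0.02 to 0.22 over the 5), and 0 of 5 pairs of CAC with Con. Over all genes the block gave 498 calls in place of 1247 against Con and 290 in place of 873 against NCAC at 8 weeks.

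Scaling moved the balance of all calls but no member call. With voom the share higher was 51% against Con at 6 weeks, 47.6% at 8 weeks, and 37.8% and 46.3% against NCAC at 6 and 8 weeks. Counts of all genes called moved by over 1.5 times as follows. Against Con at 6 weeks 236 became 111 with the erythroid score, 149 with the 4 marker scores and 64 with the oligodendrocyte score. Against Con at 8 weeks 1247 became 311 with the 4 marker scores and 707 with the oligodendrocyte score. Against NCAC at 6 weeks 1399 became 904 with no level filter, 746 with TMM, 628 with only the groups compared, 235 with the erythroid score, 688 with the 4 marker scores, 457 with the oligodendrocyte score and 712 with voom. Against NCAC at 8 weeks 873 became 284 with only the groups compared, 455 with the 4 marker scores and 486 with the oligodendrocyte score. Hmox1 and Steap3 had the fewest reads, with medians of 140 and 280 per library, but the within-group SD of log2 values was largest for Trf (0.278), with a median of 8003 reads.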
